A study of Mus musculus with 51 samples.

Results

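The effects of losing Vhl and of losing Bmal1 were compared gene by gene in mouse gastrocnemius muscle, to find the genes that the knockouts moved in opposite directions and those that they moved in the same direction. The comparison rests on 22 of the 51 libraries of the series, 1 library per animal, all sequenced in batch 2 and all from mice on high-fat diet. They are 4 Vhl knockouts (genotype label VhlKO) with 6 controls that carry the floxed allele (Vhlfx/fx, here VhlFx), and 4 Bmal1 knockouts (Bmal1KO) with 8 controls (Bmal1fx/fx, here Bmal1Fx). Each knockout has controls of its own line, so the 2 effects share no animal. The series describes the Bmal1 knockout as specific to skeletal muscle. Nothing in the labels names the Cre driver, sex, age, strain background or hour of harvest, and whole muscle was taken, so cells other than fibres are in every library. The contrast tested was (VhlKO minus VhlFx) minus (Bmal1KO minus Bmal1Fx), for all 13093 genes of 48321 symbols that passed a filter on low counts. Other animals of the series, namely 4 double knockouts (Bmal1KO;VhlKO, here dKO) with 6 controls (dFx) and the Bmal1 knockouts of batch 1, serve to follow the same genes.

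VHL is part of a ubiquitin ligase that recognises the alpha subunits of the hypoxia-inducible factors (HIF) once prolyl hydroxylases of the EGLN family have hydroxylated them, a step that needs oxygen. Without VHL the subunits escape breakdown, pair with ARNT and switch on genes of glycolysis, red cell and vessel supply and mitochondrial turnover. BMAL1, the product of Arntl, pairs with CLOCK and drives the daily clock through E-boxes. Both pairs are bHLH-PAS proteins, and their recognition sequences overlap: the E-box CACGTG contains the HIF core ACGTG.

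Depth ran from 9046107 to 14005155 counts per library, and correlations of log2 CPM (counts scaled to a common effective library size) between replicates ran from 0.968 to 0.984. Vhl itself was at 1.69 ± 0.79 CPM in VhlKO (SD, n = 4) and 3.09 ± 1.30 in VhlFx (n = 6), and its log2 fold change was −0.85 ± 0.30 (standard error, adjusted p = 0.022). Its part of the contrast, −1.17 ± 0.38, did not pass without VhlKO animal 1 (−0.94, adjusted p = 0.064). Arntl was at 9.27 ± 1.16 CPM in Bmal1KO and 10.9 ± 1.59 in Bmal1Fx (−0.24 ± 0.13, adjusted p = 0.24). It also differed between the control lines, with 14.8 ± 1.88 CPM in VhlFx (VhlFx minus Bmal1Fx 0.44 ± 0.11, adjusted p = 0.036). In other animals Arntl fell, by 1.02 (SE 0.22, adjusted p = 0.0025) in Bmal1 knockouts of batch 1 and by 0.48 (SE 0.13, adjusted p = 0.0021) in the double knockout. The libraries count 3′ tags, which may lie outside the deleted exons, so these values check neither deletion.

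Markers of other cell types moved with Vhl loss. The summed level of 9 endothelial markers ran from 407 to 501 CPM in VhlKO against 200 to 220 in VhlFx (9 of 9 rose), and from 195 to 230 in Bmal1KO against 175 to 215 in Bmal1Fx (0 rose). Red blood cell markers ran from 5830 to 7030 CPM in VhlKO against 878 to 1550 (6 of 6 rose). Myofibre markers, among them Myh4 and Ttn, ran from 80400 to 85200 CPM against 112000 to 145000 (7 of 8 fell, and Mb rose), and from 118000 to 121000 in Bmal1KO against 128000 to 140000. Pericyte and smooth muscle markers ran from 572 to 636 CPM in VhlKO against 381 to 434, and macrophage markers from 116 to 208 against 85.6 to 182. In Bmal1KO macrophage markers ran from 75.4 to 95.8 CPM against 92 to 158 (1 of 8 fell, list median −0.51). In the Bmal1 knockouts of batch 1 the median of this list was 0.08. Mitochondrial genome transcripts took 32.2 ± 3.49% of counts in VhlKO, 37.2 ± 2.29% in VhlFx, 29.5 ± 2.6% in Bmal1KO and 31.3 ± 1.3% in Bmal1Fx. The part of these shifts in the results below was not tested. In whole muscle, fewer cells of a type and less RNA per cell cannot be told apart. The TMM scaling factors, which align the bulk of genes, were 1.06 to 1.17 in VhlKO and 0.811 to 0.973 in VhlFx. With library size as the only scaling, the median of all genes moves by 0.34 (log2) in the Vhl effect, 0.08 in the Bmal1 effect and 0.26 in the contrast, and this turns the sign of some Vhl effects.

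The Vhl effect was the broader. Loss of Vhl changed 4876 of 13093 genes (37.2%, with 2320 or 17.7% higher and 2556 or 19.5% lower), and loss of Bmal1 changed 1820 (13.9%, with 909 or 6.94% higher and 911 or 6.96% lower), at an adjusted p under 0.05. The median size of the log2 fold change over all genes was 0.32 for Vhl and 0.174 for Bmal1. The contrast itself passed for 3311 genes (25.3%), of which 1594 (12.2%) lay higher and 1717 (13.1%) lower under Vhl loss than under Bmal1 loss. That split became 3264 higher and 590 lower with library size as the only scaling. Of the 3311, 2213 had passed for Vhl alone, 418 for Bmal1 alone, 481 for both and 199 for neither. The control lines differed from each other in 84 genes (0.642%, of which 0.527% were higher in VhlFx and 0.115% lower), 39 of them among the 3311.

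Both knockouts changed 1037 genes (7.92% of those tested), which is 21.3% of the Vhl list and 57% of the Bmal1 list. Among them the same direction was more common: 734 genes (5.61% of all tested) moved the same way, 264 higher (2.02%) and 470 lower (3.59%) in both, and 303 (2.31%) moved in opposite ways. Of the 303, 87 were higher in VhlKO and lower in Bmal1KO (0.664%) and 216 the reverse (1.65%). Both splits turn with library size as the only scaling, which gave 171 and 77 opposite genes, and 853 higher and 168 lower among 1021 that moved the same way. All 303 passed the contrast, with differences from 0.37 to 9.45 on the log2 scale. This nearly follows from how they were chosen, since the contrast is the difference of the same 2 effects, and it is no further evidence. Of the 734, 178 passed the contrast, 116 with the larger change under Vhl loss and 62 under Bmal1 loss, and the other 556 did not, which does not show that their changes were equal. Across all 13093 genes the 2 effects had a Pearson r of 0.217 and a Spearman rho of 0.137, a description across genes that are not independent replicates.

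**Figure D1:**
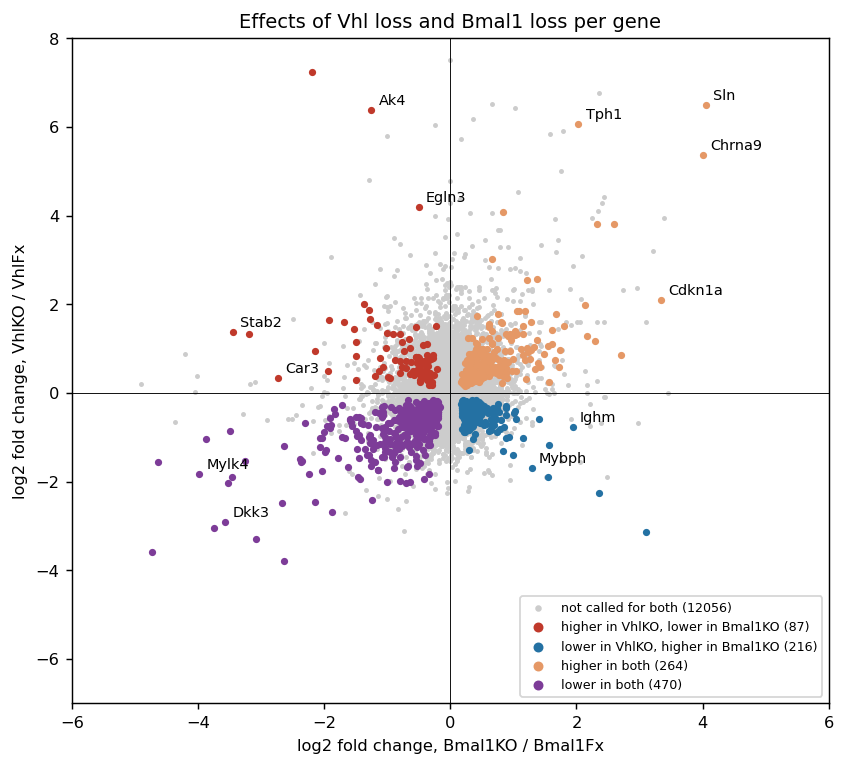
Log2 fold change of each of the 13093 genes after Bmal1 loss (horizontal axis) and after Vhl loss (vertical axis). Coloured points are the 1037 genes called in both effects, by direction: the 303 in the upper left and lower right moved in opposite ways, and the 734 in the other corners the same way.

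Genes that rose without Vhl and fell without Bmal1 included a run of textbook HIF targets. Of 46 tested genes on the 2 lists of HIF-induced genes, which share Bhlhe40 with the clock list, 7 were of this kind: Ak4, Egln3, Bnip3, Bhlhe40, Mxi1, Ldha and Slc16a3. The table of RefSeq promoters (GRCm38.p6) held entries for 6 of the 7. The 150 bases before the start site are shown for 4 of them, because the letters that BMAL1 and HIF recognise can be searched for there. They run 5′ to 3′, and capitals mark every ACGTG or GCGTG on either strand, so that CACGTG, which reads the same on both strands, appears whole.
Ak4, chr4:101419139-101419288, + strand: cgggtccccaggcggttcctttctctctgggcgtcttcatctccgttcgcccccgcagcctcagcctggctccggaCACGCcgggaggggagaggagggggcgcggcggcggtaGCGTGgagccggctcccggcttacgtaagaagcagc
Ldha, upstream start, chr7:46845654-46845803, + strand: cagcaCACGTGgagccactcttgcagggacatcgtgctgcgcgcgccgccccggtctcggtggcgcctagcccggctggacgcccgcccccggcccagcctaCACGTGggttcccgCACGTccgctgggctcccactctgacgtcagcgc
Slc16a3, chr11:120948917-120949066, + strand: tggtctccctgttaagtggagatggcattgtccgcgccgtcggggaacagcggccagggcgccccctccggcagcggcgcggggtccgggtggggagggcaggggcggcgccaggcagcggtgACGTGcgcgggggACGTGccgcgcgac
Bnip3, chr7:138909507-138909656, − strand: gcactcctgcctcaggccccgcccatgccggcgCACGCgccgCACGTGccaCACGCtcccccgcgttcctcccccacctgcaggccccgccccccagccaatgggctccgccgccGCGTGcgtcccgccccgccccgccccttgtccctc
Counted from the start site, Ldha held the E-box CACGTG at positions −145 and −48, and Bnip3 held it at −108. Slc16a3 held ACGTG at −27 and −14 with no CACGTG, and Ak4 held CACGC, the other strand of GCGTG, at −74 and GCGTG at −36. The 4 windows printed all held a match. Another Ak4 start, with the window chr4:101419553-101419702, held neither motif. The table has a second Ldha start, at which the window chr7:46846932-46847081 held no CACGTG and 1 HIF core. GENCODE transcripts cover the bases after that start and not those after the one shown. Egln3 held neither motif in this window, and Mxi1 held 1 HIF core before 2 of its 3 starts. Over all 32851 promoters of the table, 28.6% held ACGTG or GCGTG and 4.3% held CACGTG. Among promoters of the tested genes these shares were 42.4% and 5.99%, among the 80 promoters of genes that rose without Vhl and fell without Bmal1 41.2% and 5%, and among the 201 of the reverse pattern 41.8% and 4.48%. In genes that moved the same way, 47.3% of the 273 promoters of the higher and 39.5% of the 474 of the lower held the HIF core, with CACGTG in 5.86% and 4.85%. Neither opposite class held either motif in a larger share of its promoters than the tested genes did. A match is a string of letters and no proof of binding.

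Ak4 (chr4:101419277-101466995, + strand, GRCm38), a mitochondrial adenylate kinase, was almost silent with Vhl present. It stood at 184, 172, 169 and 170 CPM in the 4 VhlKO animals against 1.33 to 2.6 (median 2.14) in VhlFx, and at 1.18, 0.721, 0.741 and 1.26 CPM in Bmal1KO against 1.38 to 3.26 (median 2.24) in Bmal1Fx. Neither pair of groups overlapped. The log2 fold changes were 6.39 ± 0.13 and −1.25 ± 0.22, a contrast of 7.65 ± 0.25 (adjusted p = 1.4e-27). Egln3, a prolyl hydroxylase that marks HIF, stood at 784, 712, 745 and 740 CPM in VhlKO against 35.2 to 49.7 (median 40.1), and at 42, 28.9, 24.6 and 25.6 in Bmal1KO against 32.3 to 53.1 (median 41.4). VhlKO lay far above its controls, while 1 Bmal1KO animal lay among its own (4.19 ± 0.13 and −0.50 ± 0.13, contrast 4.70 ± 0.19, adjusted p = 7e-18). Bnip3, a receptor for the removal of mitochondria, stood at 484, 391, 435 and 477 CPM in VhlKO against 146 to 178 (median 153). In Bmal1KO it stood at 142, 134, 140 and 134 CPM against 142 to 176 (median 159), so that the groups met at 142 (1.51 ± 0.07 and −0.22 ± 0.07, contrast 1.73 ± 0.10, adjusted p = 1.2e-18). With library size as the only scaling the Bmal1 value of Bnip3 was −0.14 and did not pass (adjusted p = 0.27, edgeR).

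Ldha, the lactate dehydrogenase subunit that favours lactate, stood at 1910, 2710, 1870 and 2020 CPM in VhlKO against 1380 to 1520 (median 1450). In Bmal1KO it stood at 953, 981, 964 and 943 CPM against 1260 to 1510 (median 1360). All animals of each knockout lay outside their controls (0.55 ± 0.07 and −0.52 ± 0.07, contrast 1.07 ± 0.10, adjusted p = 3.5e-12). Ldha has near-identical copies in the genome that could share its reads. Ldhb, the other subunit, lay lower in the contrast (−0.64 ± 0.20 and 0.42 ± 0.18, contrast −1.06 ± 0.26, adjusted p = 0.0035). Slc16a3, a lactate exporter, changed by 0.49 ± 0.08 and −0.59 ± 0.08 (contrast 1.08 ± 0.11, adjusted p = 8e-11). Mxi1, a rival of MYC, changed by 0.43 ± 0.08 and −0.64 ± 0.08. Bhlhe40, a repressor that both the clock and HIF induce, stood at 60.4, 80.4, 66.5 and 61.6 CPM in VhlKO against 42.7 to 48.6 (median 44), and at 27.5, 18.6, 20.1 and 18.2 in Bmal1KO against 32.6 to 52 (median 43.9), without overlap (0.59 ± 0.10 and −1.06 ± 0.11, contrast 1.65 ± 0.15, adjusted p = 1.3e-11).

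In the wider lists more HIF-induced genes passed for Vhl than for Bmal1. Of 20 HIF-induced glycolysis and lactate genes, 13 rose and 2 fell without Vhl (medians 0.65 for Vhl and −0.15 for Bmal1, against 0.01 and −0.01 over all genes), 1 rose and 5 fell without Bmal1, and 14 lay higher and 1 lower in the contrast. Of 26 HIF-induced genes of mitochondria, signalling and demethylation, 19 rose and 0 fell without Vhl (7 did not pass), 1 rose and 5 fell without Bmal1, and 18 lay higher in the contrast (medians 1.08 and −0.17). Car9, a membrane carbonic anhydrase, stood at 56.3, 54.3, 47.9 and 56.3 CPM in VhlKO against 0.473 to 1.26 (median 0.641), and did not pass for Bmal1 (0.36 ± 0.24, contrast 5.81 ± 0.31, adjusted p = 1.2e-19). Ndufa4l2, a mitochondrial protein induced by HIF, stood at 48.3, 44.3, 55.1 and 50 CPM against 2.17 to 3.78 (median 3.11), with a Bmal1 value of −0.25 ± 0.23 (contrast 4.26 ± 0.30, adjusted p = 7.8e-14). The phosphofructokinases of liver and platelet type, Pfkl (contrast 3.07 ± 0.23) and Pfkp (2.29 ± 0.22), and the pyruvate dehydrogenase kinase Pdk1 (1.86 ± 0.13) rose without Vhl, and their Bmal1 values of −0.16 ± 0.17, 0.10 ± 0.16 and −0.16 ± 0.09 did not pass. The converse held for 2 genes of sugar entry and control: Slc2a3, the glucose transporter GLUT3, changed by −3.29 ± 0.34 without Bmal1 and −0.47 ± 0.25 without Vhl (contrast 2.82 ± 0.44, adjusted p = 1.7e-06), and Pfkfb3, which makes an activator of phosphofructokinase, by −1.67 ± 0.20 and −0.06 ± 0.19 (0.30 for Vhl with library size as the only scaling, contrast 1.60 ± 0.27). Hexokinase Hk2 fell in both (−0.49 ± 0.17 and −1.07 ± 0.17), and the pyruvate kinase Pkm rose in both (0.83 ± 0.06 and 0.31 ± 0.06).

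**Figure D2:**
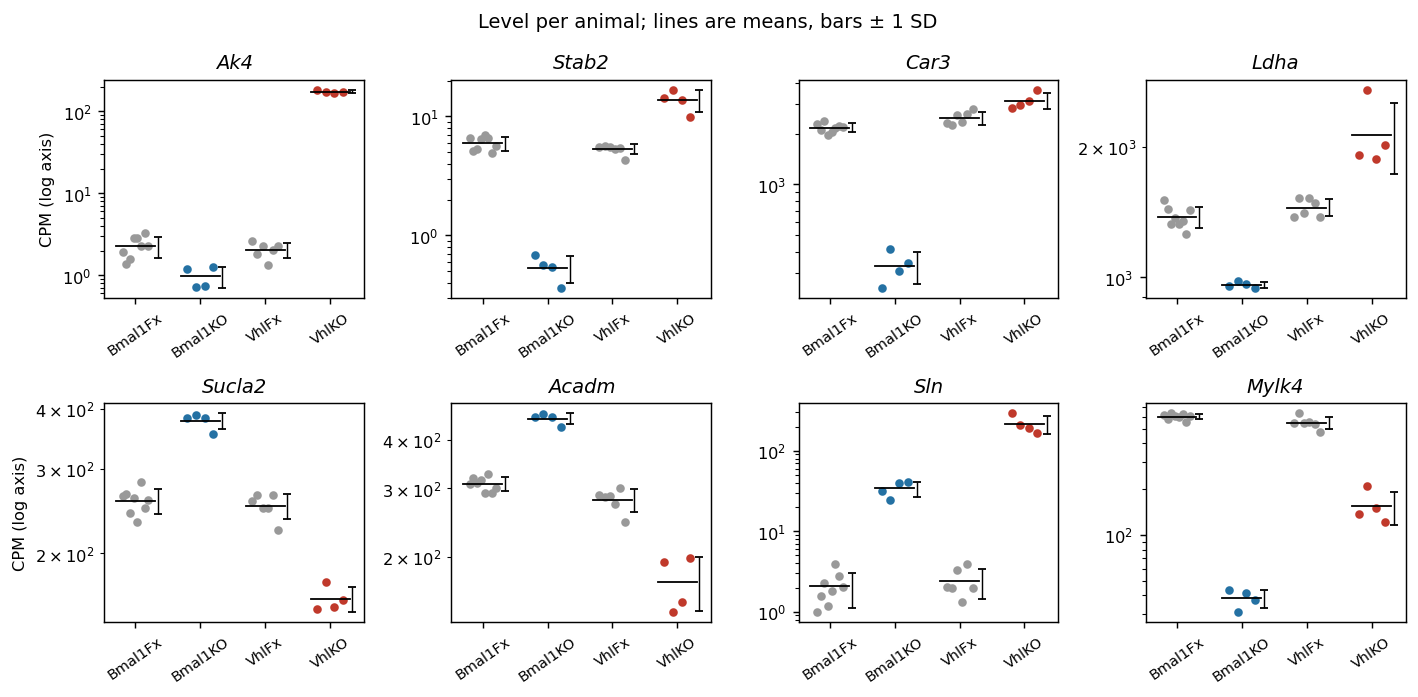
Level (CPM, log axis) of 8 genes in every animal of the 4 groups, with the mean as a line and ± 1 SD beside it. In the upper row the VhlKO points lie above and the Bmal1KO points below their controls, Sucla2 and Acadm show the reverse, and Sln rises and Mylk4 falls in both knockouts.

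Among the genes chosen by rule outside the HIF lists, the largest contrast in this direction was that of Stab2, a scavenger receptor for hyaluronan that sinus endothelium is known for, at chr10:86841198-87008025 (− strand). It stood at 14.3, 16.8, 13.8 and 9.94 CPM in VhlKO against 4.33 to 5.68 (median 5.5), and at 0.686, 0.561, 0.539 and 0.359 in Bmal1KO against 4.89 to 7 (median 6.07). The 4 groups were apart (1.38 ± 0.14 and −3.45 ± 0.21, contrast 4.83 ± 0.25, adjusted p = 5.6e-20), while endothelial markers as a list rose in VhlKO and did not move in Bmal1KO. Car3 (chr3:14863512-14872523, + strand), an abundant carbonic anhydrase of muscle, stood at 2850, 2960, 3110 and 3650 CPM in VhlKO against 2240 to 2790 (median 2460), and at 242, 412, 308 and 343 in Bmal1KO against 1970 to 2390 (median 2170). Its contrast of 3.08 ± 0.19 came mostly from the fall without Bmal1 (0.34 ± 0.13 and −2.73 ± 0.14). Kcnf1, a modulatory potassium channel subunit (contrast 3.58 ± 0.40), Gadl1, a decarboxylase of sulphur amino acid products (2.97 ± 0.32), Neto2, an auxiliary subunit of kainate receptors (2.93 ± 0.32), and Casp12, a caspase of the endoplasmic reticulum (2.63 ± 0.25), changed by 1.14 to 1.66 without Vhl and by −1.93 to −1.28 without Bmal1. H19, an imprinted noncoding RNA, stood at 830, 405, 773 and 1130 CPM in VhlKO against 204 to 329 (median 272), and at 119, 133, 102 and 113 in Bmal1KO against 245 to 296 (median 262). It varied more among VhlKO animals than in any other group here, and no knockout value lay among its controls (1.54 ± 0.16 and −1.17 ± 0.17). Itpr1, a calcium release channel, changed by 0.50 ± 0.10 and −1.94 ± 0.11, and its Vhl groups overlapped. Of the growth signal, the kinase gene Akt1 rose without Vhl and fell without Bmal1 (0.35 ± 0.08 and −0.46 ± 0.08, contrast 0.81 ± 0.11, adjusted p = 1.6e-07). All 87 genes of this class kept both signs with library size as the only scaling, and 63 of them still passed both tests. The Vhl sign nearly had to hold, since that scaling moves Vhl effects up.

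The reverse pattern, lower without Vhl and higher without Bmal1, included many genes of oxidative metabolism, and the Vhl side of these depended on the scaling. Of 70 tested nuclear genes of the respiratory chain and ATP synthase, 56 fell and 1 rose without Vhl, 47 rose and 0 fell without Bmal1, 61 lay lower in the contrast, and 35 passed both tests in opposite directions (medians −0.35 and 0.23). The Vhl side flattened to a median of −0.01 (13 higher, 13 lower) with library size as the only scaling, while the Bmal1 side stayed at 0.31 (50 higher, 0 lower). The contrast then had a median of −0.31, with 41 lower and 1 higher, and 6 genes remained opposite in that fit. Beside this, the myofibre markers as a list had a median of −0.65 without Vhl and −0.13 without Bmal1 (−0.30 and −0.05 with library size as the only scaling), and the part of fibre content in the respiratory values was not tested. Cox8b, a cytochrome oxidase subunit, was the 1 gene of the list that rose in both (0.24 ± 0.07 and 0.25 ± 0.07).

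Uqcrc2, a core subunit of complex III, stood at 246, 235, 197 and 270 CPM in VhlKO against 403 to 433 (median 418), and at 484, 496, 471 and 475 in Bmal1KO against 399 to 441 (median 428). Atp5g3, a subunit of the ATP synthase ring, stood at 875, 882, 807 and 976 CPM in VhlKO against 1270 to 1420 (median 1310), and at 1860, 1820, 1950 and 1900 in Bmal1KO against 1250 to 1590 (median 1380). For both genes each knockout lay wholly outside its controls, on opposite sides. The changes of Uqcrc2 were −0.82 ± 0.06 and 0.19 ± 0.06 (contrast −1.01 ± 0.08, adjusted p = 1.7e-13), those of Atp5g3 −0.59 ± 0.06 and 0.43 ± 0.06 (contrast −1.02 ± 0.08, adjusted p = 2.3e-13), and both kept their signs with library size as the only scaling (−0.48 and 0.27, −0.25 and 0.51). Atp5b, the catalytic beta subunit, changed by −0.66 ± 0.06 and 0.23 ± 0.06. Cox6a2, the muscle form of a cytochrome oxidase subunit, fell without Vhl (−1.07 ± 0.08) and did not pass without Bmal1 (0.12 ± 0.08, contrast −1.19 ± 0.11).

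Of 24 genes of the TCA cycle, 20 fell and 0 rose without Vhl, 7 rose and 1 fell without Bmal1, 19 lay lower and 1 higher in the contrast, and 7 were opposite (medians −0.58 and 0.16). These medians were −0.23 and 0.24 with library size as the only scaling, and 9 genes were opposite. Sucla2 (chr14:73525319-73596142, + strand), a subunit of succinyl-CoA ligase, stood at 153, 174, 155 and 160 CPM in VhlKO against 224 to 264 (median 253), and at 382, 387, 382 and 355 in Bmal1KO against 232 to 282 (median 260). The 4 groups fell into 3 levels, with both control lines together in the middle (−0.65 ± 0.06 and 0.55 ± 0.05, contrast −1.20 ± 0.08, adjusted p = 2e-16). Me3, a mitochondrial malic enzyme, stood at 13.3, 17.2, 13.8 and 13.9 CPM against 18.9 to 22.2 (median 20.7), and at 36.3, 34.2, 38.3 and 34.5 against 17.5 to 22.8 (median 19), a contrast of −1.38 ± 0.13. Dlst of the 2-oxoglutarate dehydrogenase complex (−0.89 ± 0.08 and 0.22 ± 0.07) and the succinate dehydrogenase subunit Sdhb (−0.73 ± 0.06 and 0.22 ± 0.06) followed the same pattern. Pcx, pyruvate carboxylase, was the 1 gene of the list higher in the contrast (0.83 ± 0.22), since it fell without Bmal1 (−0.74 ± 0.16).

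Fat oxidation followed. Of 32 genes, 20 fell and 4 rose without Vhl, 11 rose and 1 fell without Bmal1, 20 lay lower and 2 higher in the contrast, and 9 were opposite (medians −0.44 and 0.15). With library size as the only scaling the Vhl side held 10 higher and 7 lower (median −0.10), and 3 genes were opposite. Acadm (chr3:153922357-153944632, − strand), the medium-chain acyl-CoA dehydrogenase, stood at 194, 144, 153 and 198 CPM in VhlKO against 245 to 301 (median 286), and at 457, 467, 457 and 432 in Bmal1KO against 291 to 327 (median 309). Each knockout was again clear of its controls (−0.70 ± 0.07 and 0.56 ± 0.06, contrast −1.26 ± 0.10, adjusted p = 1.6e-14). Fabp3, a fatty acid binding protein (−0.58 ± 0.18 and 0.73 ± 0.16), Plin5, a lipid droplet coat protein (−0.44 ± 0.16 and 0.77 ± 0.13), and Hadhb of the trifunctional protein (−0.45 ± 0.09 and 0.40 ± 0.08) did likewise. Etfdh, which passes electrons from fat oxidation to ubiquinone (−0.79 ± 0.09 and 0.20 ± 0.08), and Hadh, a short-chain hydroxyacyl-CoA dehydrogenase (−0.79 ± 0.08 and −0.04 ± 0.07), fell without Vhl. Ucp2, an uncoupling protein also made by leukocytes, rose without Vhl (1.25 ± 0.24).

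Breakdown of branched-chain amino acids and the entry of pyruvate fell with Vhl and moved little with Bmal1. Of 21 branched-chain genes, 19 fell and 0 rose without Vhl, 2 rose and 1 fell without Bmal1, and 19 lay lower in the contrast (medians −0.69 and 0.10, or −0.35 and 0.18 with library size as the only scaling). Dbt, the core of the branched-chain keto acid dehydrogenase, stood at 4.38, 6.39, 3.69 and 4.08 CPM in VhlKO against 14.9 to 19.3 (median 16.2), with a Bmal1 value of −0.25 ± 0.12 that did not pass (contrast −1.58 ± 0.19, adjusted p = 5.6e-09). Mut, methylmalonyl-CoA mutase, fell without Vhl (−0.86 ± 0.08 and 0.02 ± 0.07). Ivd and Pccb were the 2 opposite genes (−0.74 ± 0.11 and 0.36 ± 0.09 for Ivd, −0.60 ± 0.07 and 0.25 ± 0.06 for Pccb), and the Bmal1 groups of Ivd overlapped. Of 13 genes of pyruvate entry, 9 fell and 2 rose without Vhl, 2 rose and 2 fell without Bmal1, and 7 lay lower and 2 higher in the contrast. Pdhx, a binding protein of the pyruvate dehydrogenase complex, was opposite (−0.83 ± 0.11 and 0.28 ± 0.10), and the subunits Dlat (−0.83 ± 0.07) and Dld (−0.78 ± 0.07) fell with Vhl loss. The 2 higher in the contrast were the inhibitory kinases Pdk1 and Pdk3 (2.26 ± 0.46).

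**Figure D3:**
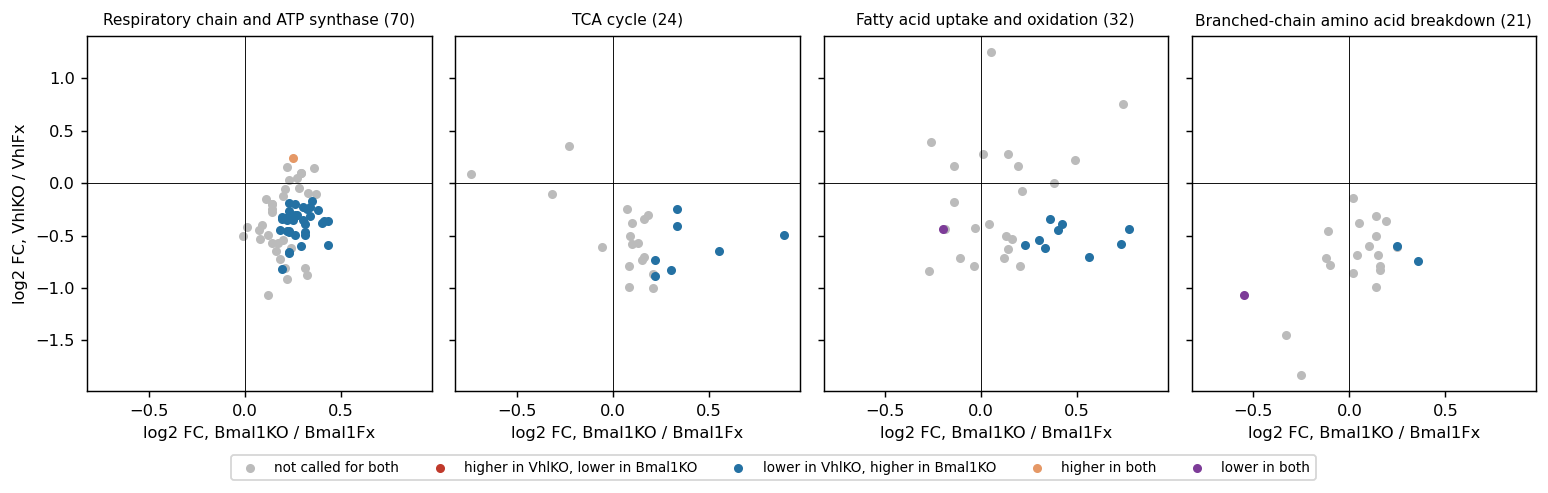
Log2 fold change after Bmal1 loss (horizontal axis) and after Vhl loss (vertical axis) of the genes of 4 oxidative lists, coloured by joint call. The points lie mostly below 0 on the Vhl axis and, for the respiratory chain, to the right of 0 on the Bmal1 axis, where 35 of 70 passed both tests in opposite directions (blue); with library size as the only scaling the respiratory median on the Vhl axis is −0.01.

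Beyond mitochondria, the reverse pattern held genes of other kinds. Gpt, a cytosolic alanine aminotransferase, stood at 4.87, 4.93, 3.03 and 8.26 CPM in VhlKO against 8.63 to 12.7 (median 10.3), and at 27, 25.4, 24.7 and 26.8 in Bmal1KO against 9.07 to 14.7 (median 11.8). All knockout values lay outside their controls (−1.01 ± 0.16 and 1.16 ± 0.12, contrast −2.18 ± 0.21, adjusted p = 1.3e-11). The aspartate aminotransferases Got1 (−0.78 ± 0.08 and 0.34 ± 0.07) and Got2 (−0.63 ± 0.07 and 0.39 ± 0.07), picked after their values were seen, shared the pattern. Mybph, a myosin-binding protein of the denervation list, stood at 14.7, 12.7, 10.3 and 27.6 CPM in VhlKO against 31.5 to 96.7 (median 46.4), and at 191, 211, 258 and 181 in Bmal1KO against 57 to 108 (median 89), the lowest contrast of the genes chosen by rule (−1.70 ± 0.33 and 1.29 ± 0.26, contrast −2.99 ± 0.42). Prss55, a serine protease below the level set for naming and picked after its values were seen, had −3.13 ± 0.51 and 3.10 ± 0.25. Ighm, the constant region of IgM, stood at 342, 311, 321 and 346 CPM in Bmal1KO against 37.3 to 131 (median 80.7), with 37.1, 62.6, 27.8 and 32 in VhlKO against 54.9 to 87.7 (median 65.3). Only its VhlKO values met their controls (−0.77 ± 0.26 and 1.94 ± 0.22), and Ighg2c, an IgG constant region that shares homology with other immunoglobulin genes, fell in both knockouts. Ttll7, a tubulin glutamylase, moved more without Bmal1 (−0.58 ± 0.08 and 1.04 ± 0.07). Ank2, an ankyrin of membrane anchoring (−0.77 ± 0.09 and 0.85 ± 0.08), Pitpnc1, a phosphatidylinositol transfer protein (−0.81 ± 0.08 and 0.79 ± 0.07), and Auts2 (−0.89 ± 0.10 and 0.74 ± 0.08) moved by similar amounts each way. Fam110b (contrast −2.01 ± 0.21), Coq5 of ubiquinone synthesis (−1.58 ± 0.15) and Cenpv (−1.49 ± 0.16) completed the 10 with the largest contrast, and Coq5 also differed between the control lines (adjusted p = 0.0065). The Vhl groups of Fam110b and the Bmal1 groups of Coq5 overlapped. Of the 216 genes of this class all kept the Bmal1 sign with library size as the only scaling, 149 kept the Vhl sign, 54 still passed both tests and 180 still passed the contrast. The Bmal1 sign nearly had to hold, since that scaling moves Bmal1 effects up.

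Clock genes separated the knockouts by size. Without Bmal1, 11 of the 14 outputs of the clock's E-boxes fell and 2 rose; without Vhl, 7 fell and 2 rose, and 10 lay higher and 3 lower in the contrast (medians −1.07 for Bmal1 and −0.33 for Vhl). With library size as the only scaling the Vhl median turned to 0.02, with 4 higher and 3 lower. Nr1d1, the heme-binding repressor REV-ERB alpha, stood at 19.1, 19.3, 19.5 and 16.5 CPM in Bmal1KO against 45.3 to 63.2 (median 57.4), and at 43.4, 47.4, 43.7 and 35.2 in VhlKO against 59 to 73.4 (median 65). It fell in both without overlap, more so without Bmal1 (−1.59 ± 0.09 and −0.62 ± 0.09, contrast 0.96 ± 0.13, adjusted p = 6.9e-08). Nr1d2, its paralog, fell without Bmal1 (−2.06 ± 0.13) and did not pass without Vhl (−0.29 ± 0.12, which turns to 0.06 with library size as the only scaling). Dbp and Hlf, activators of D-boxes, fell by 2.30 and 1.85 without Bmal1 and by 0.67 and 0.36 without Vhl. Ciart, a repressor of the clock, had −4.04 ± 0.39 without Bmal1 and 0.03 ± 0.28 without Vhl (contrast 4.07 ± 0.49, adjusted p = 1e-08).

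Of 5 tested core activators and genes that REV-ERB represses, 3 rose and 1 fell without Bmal1 and 0 passed without Vhl, where 3 rose with library size as the only scaling. Clock stood at 48.9, 49.8, 53.3 and 52.9 CPM in Bmal1KO against 21.9 to 28.4 (median 25.1), and at 26.8, 27.3, 29.8 and 30.1 in VhlKO against 23.4 to 29.5 (median 25.8), so that the Bmal1 groups were apart and the Vhl groups overlapped (contrast −0.89 ± 0.11, adjusted p = 7.8e-09). Its Vhl value of 0.12 ± 0.08 did not pass, but was 0.47 (adjusted p = 3.4e-06, edgeR) with library size as the only scaling. Nfil3, a repressor of D-boxes, rose without Bmal1 (0.63 ± 0.14), and its contrast of −0.69 ± 0.21 did not pass without Bmal1KO animal 6 (−0.58, adjusted p = 0.056). Rora fell without Bmal1 (−0.72 ± 0.07), and its Vhl value turns to 0.22 with library size as the only scaling.

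**Figure D4:**
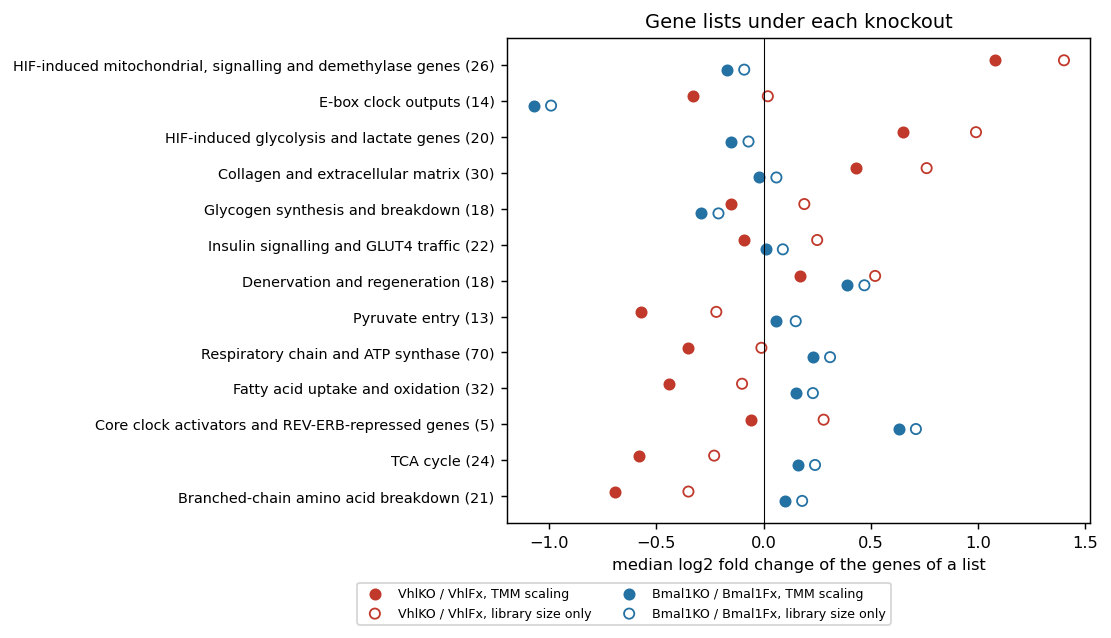
Median log2 fold change of the genes of 13 lists after Vhl loss (red) and after Bmal1 loss (blue), with TMM scaling (filled) and with library size as the only scaling (open). Oxidative lists lie left of 0 for Vhl and right of 0 for Bmal1 with TMM scaling, and the respiratory chain moves from −0.35 to −0.01 for Vhl with library size alone.

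Genes that rose in both knockouts included Sln, Tph1, Cdkn1a and subunits of the acetylcholine receptor. Sln (chr9:53850164-53854560, + strand), sarcolipin, a small brake on the calcium pump, stood at 292, 209, 190 and 168 CPM in VhlKO against 1.33 to 3.92 (median 2.01), and at 31.7, 24.8, 39.5 and 40.5 in Bmal1KO against 0.992 to 3.89 (median 1.91). Both knockouts were far above controls, and the rise was larger without Vhl (6.49 ± 0.32 and 4.05 ± 0.30, contrast 2.44 ± 0.50, adjusted p = 0.00054). Cdkn1a, the cell cycle inhibitor p21, stood at 186, 103, 190 and 244 CPM in VhlKO against 25.2 to 55.1 (median 42.8), and at 262, 414, 336 and 353 in Bmal1KO against 20.7 to 46 (median 34.9). Here the rise was larger without Bmal1 (2.09 ± 0.23 and 3.34 ± 0.21, contrast −1.25 ± 0.32, adjusted p = 0.0044). Tph1, a tryptophan hydroxylase, stood at 70.7, 72.4, 59.1 and 51.8 CPM in VhlKO against 0.737 to 1.66 (median 0.804), and at 4.11, 2.81, 3.44 and 3.32 in Bmal1KO against 0.284 to 1.41 (median 0.729), a contrast of 4.03 ± 0.39. Dupd1, a dual specificity phosphatase gene, was the main case of a larger rise without Bmal1 (2.70 ± 0.17 against 0.85 ± 0.20, contrast −1.85 ± 0.27), and its Vhl groups overlapped.

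Acetylcholine receptor subunits were among the shared rises. Chrna1, the muscle alpha subunit, stood at 43.1, 22.7, 36.4 and 27.7 CPM in VhlKO against 8.32 to 11 (median 9.32), and at 29.1, 34.1, 43.7 and 32.5 in Bmal1KO against 8.9 to 13.9 (median 10.8). The changes were 1.78 ± 0.15 and 1.67 ± 0.14, and their difference of 0.10 ± 0.21 did not pass (adjusted p = 0.77) and turns to −0.06 without VhlKO animal 1. Chrna9, another alpha subunit, had 0 to 3 counts per library in VhlFx and 61 to 120 in VhlKO, and 0 to 5 in Bmal1Fx and 15 to 42 in Bmal1KO. Chrnb1, the muscle beta subunit, rose without Bmal1 (1.20 ± 0.11 against 0.05 ± 0.12 without Vhl, contrast −1.15 ± 0.17, adjusted p = 4.2e-07), and with library size as the only scaling it rose in both (0.41 for Vhl, adjusted p = 0.0099). Of 18 genes of denervation and regeneration, 7 rose and 3 fell without Vhl, 7 rose and 1 fell without Bmal1, and 4 rose in both: Sln, Cdkn1a, Chrna1 and Myog, the last a myogenic regulator (1.03 ± 0.31 and 1.33 ± 0.26). Runx1, a factor of denervated muscle, rose without Vhl (1.36 ± 0.18) and had 0.30 ± 0.17 without Bmal1.

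Cpne2, a calcium-dependent phospholipid binder (1.51 ± 0.13 and 1.80 ± 0.11), Mt1, a metallothionein (1.59 ± 0.24 and 1.28 ± 0.22), Gamt of creatine synthesis (1.5 ± 0.11 and 1.15 ± 0.10), E2f2, a cell cycle factor (1.18 ± 0.20 and 2.29 ± 0.18), and Slc15a5 (1.10 ± 0.27 and 1.61 ± 0.23) also rose in both. The Vhl groups of Slc15a5 overlapped (1.99 to 9.65 CPM in VhlKO against 1.19 to 3.67 in VhlFx). The contrast of Gamt, 0.35 ± 0.15, did not pass, but did without Bmal1KO animal 9 (0.44, adjusted p = 0.026) or VhlFx animal 6 (0.41, adjusted p = 0.036), and so did that of Slc15a5 without VhlKO animal 1 (−0.93, adjusted p = 0.036). All 264 genes that rose in both kept both signs and both calls with library size as the only scaling. That scaling moves the medians of both effects up (0.34 for Vhl and 0.08 for Bmal1). The result therefore nearly follows from the direction of the class and is no further evidence.

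Genes that fell in both included Mylk4, Dkk3 and Cdh4. Mylk4 (chr13:32700834-32783954, − strand), a myosin light chain kinase, stood at 138, 209, 150 and 121 CPM in VhlKO against 473 to 632 (median 545), and at 43.3, 31, 41.2 and 37.3 in Bmal1KO against 552 to 631 (median 605). The fall was deeper without Bmal1 (−1.82 ± 0.10 and −3.98 ± 0.11, contrast 2.16 ± 0.13, adjusted p = 3.3e-15). Dkk3, a secreted relative of WNT inhibitors, stood at 0.696, 0.539, 1.32 and 0.941 CPM in VhlKO against 4.93 to 8.28 (median 6.56), and at 0.979, 0.882, 0.674 and 0.628 in Bmal1KO against 6.06 to 12.3 (median 10.3), and its contrast of 0.66 ± 0.44 did not pass. Cdh4, a cadherin (−2.49 ± 0.24 and −2.67 ± 0.23), Mical2, an actin-oxidising enzyme (−1.68 ± 0.13 and −1.62 ± 0.12), Net1, an exchange factor for RhoA (−1.46 ± 0.16 and −1.44 ± 0.15), Tpx2, a spindle factor (−1.46 ± 0.18 and −1.78 ± 0.17), and Ces1d, a lipase (−1.90 ± 0.25 and −1.46 ± 0.22), did not pass the contrast. Rasd2, a small GTPase, and Aebp1, a matrix protein, fell more without Bmal1 (contrasts 1.73 ± 0.19 and 0.90 ± 0.13). Ighg2c had 0, 1, 8 and 4 counts in Bmal1KO and 13, 47, 14 and 22 in VhlKO, against 44 to 109 and 41 to 93 in their controls. Of the 470 genes that fell in both, 394 kept both signs with library size as the only scaling and 168 both calls.

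Sugar storage and uptake held several shared falls. Of 18 genes of glycogen turnover, 8 fell and 5 rose without Vhl, 8 fell and 1 rose without Bmal1, and 7 fell in both (medians −0.15 and −0.29, and 0.19 for Vhl with library size as the only scaling, under which 2 fell in both). Ppp1r3a, which tethers a phosphatase to glycogen, stood at 92.2, 108, 89.6 and 92.7 CPM in VhlKO against 176 to 260 (median 221), and at 153, 140, 136 and 144 in Bmal1KO against 184 to 215 (median 205). Both knockouts lay below controls, VhlKO further (−1.16 ± 0.09 and −0.49 ± 0.08, contrast −0.67 ± 0.12, adjusted p = 2.4e-05). Phka1, a phosphorylase kinase subunit, fell in both (−1.44 ± 0.09 and −1.05 ± 0.09), as did Pgm2, a phosphoglucomutase (−0.39 ± 0.07 and −0.87 ± 0.07). Phkg1, the catalytic subunit of muscle phosphorylase kinase, fell without Vhl (−0.78 ± 0.09) and had −0.12 ± 0.08 without Bmal1. Ppp1r3b, the glycogen tether known from liver, rose without Vhl (2.80 ± 0.38) and had −1.12 ± 0.58 without Bmal1 (contrast 3.92 ± 0.69, adjusted p = 1.9e-05). Gys1, glycogen synthase, rose without Bmal1 (0.26 ± 0.07) and had −0.17 ± 0.07 without Vhl (0.17 with library size as the only scaling, where its contrast of −0.16 did not pass).

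Of 22 genes of insulin signalling and GLUT4 traffic, 4 rose and 6 fell without Vhl and 4 rose and 4 fell without Bmal1, with medians of −0.09 and 0.01 and Vhl shares near those of all genes (17.7% higher, 19.5% lower). With library size as the only scaling the Vhl side held 11 higher and 4 lower. Tbc1d1 (chr5:64156305-64351486, + strand), a RabGAP that holds GLUT4 vesicles back, stood at 17.5, 28, 18.1 and 21.3 CPM in VhlKO against 36.1 to 49.9 (median 43.2), and at 10.4, 10.7, 12.5 and 7.09 in Bmal1KO against 37.5 to 48.9 (median 42.2). It fell in both, more without Bmal1 (−1.02 ± 0.11 and −2.04 ± 0.12, contrast 1.02 ± 0.16, adjusted p = 2.6e-06). Its relative Tbc1d4 fell without Vhl (−1.08 ± 0.11) and had 0.12 ± 0.10 without Bmal1 (contrast −1.20 ± 0.15, adjusted p = 1.5e-08). Pik3ca, a catalytic subunit of PI3 kinase, rose without Bmal1 (0.50 ± 0.06) and had −0.01 ± 0.07 without Vhl (0.34, adjusted p = 0.00044, with library size as the only scaling). Its contrast of −0.51 ± 0.09 did not pass with library size as the only scaling (−0.25). Irs2, an adaptor of the insulin receptor, fell in both (−0.67 ± 0.23 and −0.96 ± 0.22).

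Matrix genes moved with Vhl. Of 30 collagen and matrix genes, 19 rose and 0 fell without Vhl, 0 rose and 1 fell without Bmal1, and 14 lay higher in the contrast (medians 0.43 and −0.02). P4ha1, a collagen prolyl hydroxylase, stood at 132, 124, 122 and 112 CPM in VhlKO against 20.6 to 26.1 (median 23.2), with 0.24 ± 0.09 without Bmal1 (contrast 2.16 ± 0.13, adjusted p = 4e-18). Loxl2, a cross-linking oxidase (contrast 1.48 ± 0.20), Lum, a collagen-binding proteoglycan (0.86 ± 0.17), and Col4a1 of basement membrane (0.63 ± 0.11) were also higher, and Loxl2 differed between the control lines as well (adjusted p = 0.04). Fibroblast markers, a list that itself includes Lum, ran from 1420 to 1870 CPM in VhlKO against 1160 to 1930 in VhlFx. The part of cell content in the matrix values was not tested.

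A few genes with large contrasts rested on 1 knockout or 1 animal. Atp8a2, a lipid flippase (2.13 ± 0.18), and Gramd1b, a sterol transporter (1.31 ± 0.13), rose without Bmal1 and did not pass without Vhl (0.50 ± 0.24 and −0.36 ± 0.16). Mdga1, a membrane anchor protein, fell without Vhl (−2.16 ± 0.26). Iigp1, an interferon-induced GTPase, stood at 34.3, 217, 37.3 and 24.2 CPM in VhlKO against 5.44 to 9.95 (median 7.41), and its contrast of 4.15 ± 1.26 did not pass without VhlKO animal 2 (2.85, adjusted p = 0.089).

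The classes were followed into other animals. In batch 1, where 7 controls and 5 Bmal1 knockouts on high-fat diet gave 1149 changed genes (9% of 12762, 3.82% higher and 5.18% lower), the Bmal1 effect had the sign seen in batch 2 for 78 of 85 tested genes that rose without Vhl and fell without Bmal1, and for 209 of 216 of the reverse pattern. Of these, 36 and 96 passed in batch 1 in the same direction and 0 in the other. Among the HIF targets, Ldha (−0.44, adjusted p = 0.00077, edgeR) and Bhlhe40 (−0.90, adjusted p = 0.0013) passed in batch 1. Ak4 (−0.77, adjusted p = 0.31), Egln3 (−0.41, adjusted p = 0.46) and Bnip3 (−0.23, adjusted p = 0.1) did not. The shared rises kept the sign for 255 of 261 and the shared falls for 465 of 468, against 67.7% of all 12454 genes tested in both batches. Every class was chosen by a passing Bmal1 effect in batch 2, and most of those 12454 genes were not. The difference therefore says nothing about the joint classes as such, and batch 1 holds no Vhl knockout. In 1 fit of both batches the Bmal1 effect differed between batches for 0 of 13926 genes (0%), with 715 at an unadjusted p under 0.05 in edgeR, the tool used for this test.

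In the double knockout, which changed 4638 genes (35.4%, 17.4% higher and 18.1% lower) against its own controls, genes that had moved the same way mostly moved that way again. Of the 264 shared rises 206 were higher and 2 lower, and of the 470 shared falls 432 were lower and 0 higher. The opposite classes split. Of 87 genes that rose without Vhl and fell without Bmal1, 31 were higher, 17 lower and 39 did not pass (median 0.11), and of 216 of the reverse pattern 35 were higher, 74 lower and 107 did not pass (median −0.09). Among HIF targets of the first class, Ak4 (6.31), Egln3 (4.07), Bnip3 (1.65) and Ldha (0.73) rose in the double knockout, Slc16a3 fell (−0.28, adjusted p = 0.0045), and Bhlhe40 had −0.12 (adjusted p = 0.4). Stab2 (1.56) and Kcnf1 (2.16) rose, Car3 (−0.67) and Itpr1 (−0.97) fell, and Casp12 had −0.06 (adjusted p = 0.81). Among oxidative genes, Uqcrc2 (−0.33), Atp5g3 (−0.23) and Sdhb (−0.40) fell, Me3 (0.68) rose, and Sucla2 (0.11), Acadm (0.10) and Hadhb (0.10) did not pass. Chrna9 had 384 to 467 counts per double knockout library, and Mylk4 had the deepest fall of the named genes there (−7.47).

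**Figure D5:**
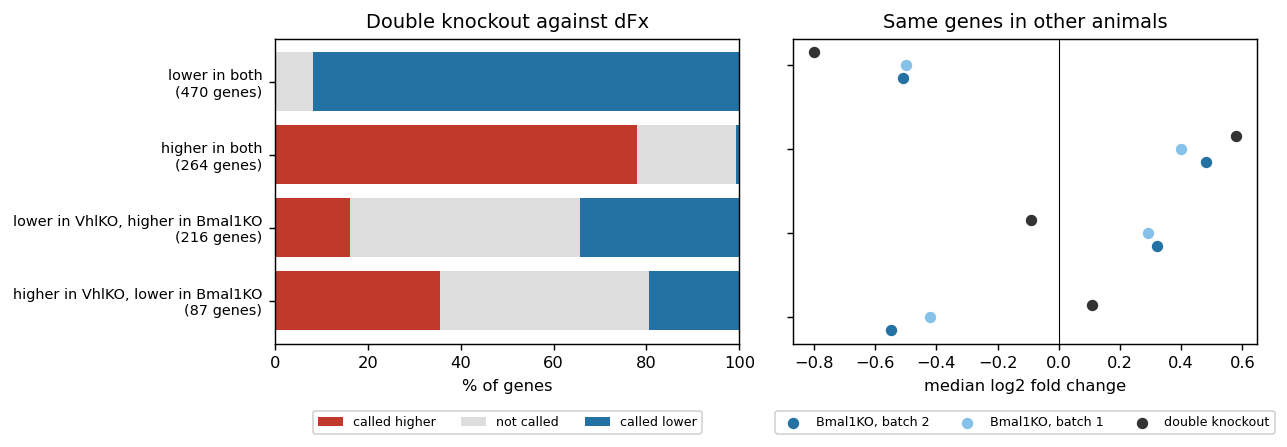
Left, share (%) of the genes of each joint class called higher, called lower or not called in the double knockout against dFx. Right, median log2 fold change of each class after Bmal1 loss in batch 2, after Bmal1 loss in batch 1 and in the double knockout, where the opposite classes have medians of 0.11 and −0.09.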

How the data were processed

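RNA of snap-frozen whole gastrocnemius was made into 3′ tag libraries (Lexogen QuantSeq, forward) by the authors, per the labels' protocols. FastQC 0.11.4, STAR 2.6.0, HTSeq and edgeR 3.26.8, with the builds mm10 and GRCm38.p4, are named in the submitters' processing notes. The deposited values used here are whole-number counts per gene symbol, not normalized by the authors as far as the values show.

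From these counts, edgeR 4.0.16 (R 4.3.3) was run with filterByExpr, TMM scaling and robust quasi-likelihood fits over all 6 groups of batch 2 (32 libraries), and p-values were adjusted by Benjamini-Hochberg over all 13093 genes at 0.05. CPM values are TMM-scaled, errors of log2 fold changes are standard errors, and levels were compared within genes only. Batch 1 (12762 genes) was fitted alone, and both batches together for the difference between them (13926 genes). Replicates are separate animals by their titles, no 2 libraries held identical values (0 pairs), and depth was 9046107 to 14005155 counts per library in the 22 libraries of the contrast and 6945247 to 14717795 over the 32 of batch 2. Columns of Bmal1KO animals were matched to samples through the descriptions in the labels, since the numbers there differ from the titles. A further 27 symbols appear as dates in the table and are not named.

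The comparison, its gene lists and the rule for named genes were chosen with earlier results of these data known. With an average log2 CPM of at least 2, the rule took the 8 highest and 8 lowest contrasts, the 10 largest of each joint class, and up to 4 genes of each list by contrast p, leaving out predicted genes. Other list members named were picked after their values were seen. Alternatives were DESeq2 1.42.0, limma 3.58.1 (voom), other scalings, filters and thresholds, a replicate block and leaving out each library. On simulated counts of 13093 genes the contrast test recovered 43.3% of genes changed 1.5-fold, 89.6% at 2-fold and 100% at 4-fold, and 6.63% of its calls were false. The simulation changed only 67, 67 and 66 genes at these folds, all with an average log2 CPM of at least 2. They changed in VhlKO alone, and Bmal1KO was given no effect. Far more genes change in these data, so the rates need not hold for them. Gene positions are from GENCODE M21 (GRCm38) and promoters from RefSeq (GRCm38.p6). Genes with near-identical copies (Ldha, Pkm, immunoglobulin genes) are uncertain, since reads could be split between copies. One gene that the rule for named genes takes is not reported here.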

Additional observations from a re-analysis of the deposited data

Results flagged for a closer look

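Among 380 groups (95 named genes in each of the 4 groups), 20 held 1 animal far from the others by Dixon's criterion, and chance gives about 1 in 20 groups. The values are in CPM, with the range of the other animals of that group.

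Among genes moved in opposite directions, Cenpv stood at 17.5 in VhlFx animal 3 against 12.4 to 13.2, Gadl1 at 6.29 in VhlFx animal 5 against 3.65 to 4.26, and Stab2 at 4.33 in VhlFx animal 6 against 5.3 to 5.68. Me3 stood at 17.2 in VhlKO animal 2 against 13.3 to 13.9, and Sucla2 at 355 in Bmal1KO animal 9 against 382 to 387.

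Among genes moved the same way, Chrna9 stood at 0.413 in Bmal1Fx animal 8 against 0 to 0.173, at 3.37 in Bmal1KO animal 7 against 1.44 to 1.75, and at 12.5 in VhlKO animal 4 against 5 to 6.07. Gamt stood at 13.0 in Bmal1Fx animal 12 against 10.1 to 11.4, Tph1 at 1.66 in VhlFx animal 1 against 0.737 to 0.949, and Rasd2 at 71 in Bmal1Fx animal 8 against 42.3 to 51.6. Nr1d1 stood at 16.5 in Bmal1KO animal 9 against 19.1 to 19.5, and Ppp1r3a at 108 in VhlKO animal 2 against 89.6 to 92.7.

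Among genes called in 1 effect, Iigp1 stood at 88.8 in Bmal1Fx animal 12 against 4.49 to 10.7 and at 217 in VhlKO animal 2 against 24.2 to 37.3. Egln1 stood at 513 in VhlKO animal 1 against 461 to 463, Nr1d2 at 61 in VhlKO animal 2 against 36 to 39.9, and Gramd1b at 12.4 in Bmal1Fx animal 14 against 6.74 to 9.36. VhlFx animal 5 held 94.5 for Dlat against 80.6 to 84.6 and 258 for Gys1 against 224 to 235.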

How the results depend on the processing

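DESeq2, limma voom, RLE size factors, the removal of mitochondrial transcripts, both filters, the fit without the robust option and the fit on the 4 groups alone left all 5 counts within 1.5 times. Of the 303 opposite genes, 300 were opposite in DESeq2 and 117 with library size as the only scaling, where 2 moved the same way. That scaling gave 5815 higher and 684 lower genes for Vhl and 1382 and 613 for Bmal1. At an adjusted p under 0.01, 2084 genes passed the contrast, 173 were opposite and 456 moved the same way. Leaving out 1 library gave 2823 to 3463 genes for the contrast, 4052 to 4915 for Vhl, 1409 to 1927 for Bmal1, 243 to 334 opposite and 595 to 773 the same way. With the animal number as a replicate block (4 pairs for Vhl, 2 for Bmal1), the contrast held 1373 genes, Bmal1 663, the opposite class 87 and the same class 328. The animals share only a number: correlations of same-numbered deviations were 0.03, −0.04, 0.02 and −0.03 for Vhl and −0.14 and 0.11 for Bmal1.

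Of the contrast values of named genes, 2994 kept direction and call, 24 turned, 5 newly passed and 17 no longer passed. Those that turned were the contrasts of 4 genes, and the cause was not tested. Arntl had 0.23 with library size as the only scaling, 0 with the filter at an average log2 CPM of 1, and −0.16 to 0.05 without 1 library. Chrna1 had −0.33 with the block and −0.06 to 0.25 without 1 library. Mical2 had 0.20 and 0.16 with library size alone and with the block, and −0.19 to 0.06 without 1 library. Net1 had 0.24, 0.01 and 0.02 with library size alone, the higher filter and the block, and −0.26 to 0.10 without 1 library.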

Other observations

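Vessel growth genes separated the knockouts. Of 15 angiogenic ligands and receptors, 11 rose and 1 fell without Vhl, 0 passed without Bmal1, and 9 lay higher and 1 lower in the contrast (medians 0.84 and −0.04). Vegfa, the main vessel growth factor, changed by 1.32 ± 0.12 and −0.11 ± 0.12 (contrast 1.44 ± 0.17), and its receptors Flt1 and Kdr by 1.08 ± 0.07 and 0.94 ± 0.11 without Vhl. Vegfb fell (−0.33 ± 0.08), which turns to 0.02 with library size as the only scaling. Endothelial markers as a list, which itself includes Flt1 and Kdr, also rose (9 of 9), and the part of endothelial content in these values was not tested.

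Fibre genes passed more often for Vhl than for Bmal1. Of 12 slow fibre genes, 9 rose and 0 fell without Vhl and 2 rose and 1 fell without Bmal1, with 4 slow genes higher for Vhl in limma voom. In the contrast 1 slow gene lay higher and 11 did not pass (medians 0.76 for Vhl and 0.40 for Bmal1). Of 15 fast fibre genes 13 fell without Vhl and 6 fell and 1 rose without Bmal1, and 10 lay lower in the contrast (medians −0.72 and −0.15). With library size as the only scaling the fast genes held 8 lower and 1 higher for Vhl. Myh2, the myosin of type 2A fibres, had −1.59 ± 0.20 and −0.42 ± 0.18 (contrast −1.16 ± 0.26), while Myoz1 (−0.45 ± 0.06 and −0.46 ± 0.06) and Actn3 (−0.41 ± 0.07 and −0.43 ± 0.06), both of the fast Z-disc, fell in both knockouts. With library size as the only scaling the Vhl value of Actn3 was −0.06 and did not pass, and its contrast of 0.28 passed (adjusted p = 0.034, edgeR). Casq2, a calcium store of slow fibres, rose in both (0.67 ± 0.24 and 1.39 ± 0.21). Of 16 genes of the stress of the endoplasmic reticulum and amino acid supply, 6 fell and 0 rose without Bmal1, 2 rose and 3 fell without Vhl (6 and 1 with library size as the only scaling), and 6 lay higher in the contrast. Xbp1, a factor of the unfolded protein response, was opposite (0.49 ± 0.09 and −0.55 ± 0.09). Of 16 glucocorticoid and atrophy genes, 6 fell and 1 rose without Bmal1, and 6 lay higher in the contrast. They include Fkbp5, a glucocorticoid-induced chaperone (0.27 ± 0.17 and −0.71 ± 0.17), and Fbxo32, an atrophy ubiquitin ligase (−0.30 ± 0.13, or 0.06 with library size as the only scaling, and −0.85 ± 0.12).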
